A study of Mus musculus with 36 samples.

Results

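The smooth muscle contractile genes are 10 genes, Acta2, Actg2, Tagln, Cnn1, Myl9, Myh11, Cald1, Tpm1, Tpm2 and Smtn, out of the 20325 mouse genes measured by RNA sequencing. They were picked by gene symbol, and each symbol matched exactly 1 gene. They were followed through 36 libraries, in 18 groups of 2, of mouse embryonic fibroblasts (MEFs), of MEFs being reprogrammed to induced pluripotent stem cells with or without SGC0946, and of embryonic stem cells (ESCs). SGC0946 is a small-molecule inhibitor of DOT1L, the enzyme that methylates a lysine in the core of histone H3.

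The MEFs came from E13.5 embryos. Every group but the ESCs, uninduced controls included, was homozygous for a cassette of Oct4, Klf4, Sox2 and c-Myc, joined by 2A and IRES sequences, at the Col1a1 locus and heterozygous for the reverse tetracycline transactivator at Rosa26, so that doxycycline switches the 4 factors on. The timecourse comprised uninduced MEFs with no treatment, day 2 cells given doxycycline with DMSO (day 2 control) or SGC0946 (day 2 inhibitor), and day 4 cells. The day 4 cells had doxycycline with DMSO throughout (day 4 control), SGC0946 on days 0 to 2 and then DMSO (early window), SGC0946 on days 2 to 4 (mid window) or SGC0946 on days 0 to 4 (full window). In the sort experiment, cells were separated by surface CDH1 (E-cadherin, an epithelial adhesion protein) after 3.5 days of doxycycline, and the CDH1-negative and CDH1-positive fractions were kept on doxycycline with DMSO or SGC0946 until day 5.5. In the lentivirus experiment, MEFs and day 2 cells carried an empty or a Cdh1 lentivirus, and the day 2 cells had doxycycline with DMSO or SGC0946. A label is in doubt: replicate 2 of MEFs given Cdh1 virus is named as day 2 cells in 1 label field and as MEFs in its title and treatment, and it was kept as MEFs. The ESCs were of the line V6.5, with feeder cells depleted 24 h before harvest. ESCs and reprogramming cells grew on irradiated feeder MEFs, so feeder RNA and RNA of the reprogramming cells cannot be told apart in the counts.

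As background, actin and myosin filaments slide past each other to shorten a smooth muscle cell, and tropomyosin, caldesmon and calponin lie along the actin and regulate that sliding. Fibroblasts switch on part of the same set when they spread on a stiff surface or receive TGF-beta, and such cells are called myofibroblasts. Many of these genes carry CArG boxes, to which serum response factor (SRF) binds together with the myocardin family, whose members MRTF-A (Mkl1) and MRTF-B (Mkl2) enter the nucleus when globular actin is used up. KLF4, one of the 4 reprogramming factors, is known as a repressor of smooth muscle genes in vascular smooth muscle cells.

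Promoter sequence was looked up to show what the set has in common upstream. RefSeq promoters (build GRCm38.p6) were matched for 7 of the 10 genes, in 8 entries, and the 250 bases before each start site were searched on both strands. The CArG box is CC, then a run of only A and T, then GG, 10 bases in all. It was found in 1 of the 8 windows, that of Myl9, and in 1.47% of 32841 promoter windows of that length. A relaxed form with a single G or C within the run was added after the first search. It was found in the windows of Acta2 and Myl9 and in 7.24% of all windows, and it does not overlap the exact form. The pair is shown because both hold such matches. The window of Cnn1, which fell more steeply below than either gene, held neither form, and Actg2, Tagln and Myh11 had no promoter entry. No link between match and change was tested. Capitals mark the CArG box and its relaxed form, and the windows run 5′ to 3′ along the gene from chr19:34255374-34255543 (minus strand) and chr2:156775294-156775463 (plus strand).
Acta2: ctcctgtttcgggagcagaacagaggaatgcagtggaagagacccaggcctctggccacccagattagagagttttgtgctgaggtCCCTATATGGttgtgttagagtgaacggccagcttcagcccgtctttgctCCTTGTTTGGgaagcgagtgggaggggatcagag
Myl9: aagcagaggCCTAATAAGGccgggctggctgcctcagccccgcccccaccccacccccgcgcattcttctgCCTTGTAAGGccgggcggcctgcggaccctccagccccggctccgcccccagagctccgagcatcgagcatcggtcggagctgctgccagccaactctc
In Acta2 the relaxed form lies at bases -84 to -75 and -34 to -25 from the start, and in Myl9 the exact form lies at -161 to -152 and the relaxed form at -99 to -90. CATTCC, the core bound by TEAD factors, was found on either strand in the windows of Acta2, Tpm1, Smtn and 1 of the 2 Cald1 entries, and in 12.6% of all windows. CACCC, a core of KLF binding sites, was absent from the Tpm1 window alone among the 8 and present in 52% of all windows. These are matches of letters, and binding was not measured.

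Levels are given as CPM (counts-per-million, scaled for library composition) for each library, replicate 1 first, and as TPM (transcripts-per-million, which also divides by gene length) where genes are compared with each other. A gene was called changed at a Benjamini-Hochberg adjusted p under 0.05 in edgeR's quasi-likelihood test fitted over all genes. Library totals ran from 18.5 M to 50.9 M expected counts (M for mega). Nothing in the labels ties the 2 libraries of a group to different cultures, and p-values therefore measure the spread between these libraries, which may be technical. The 12 fibroblast markers summed to between 17129 and 17776 TPM in the uninduced MEFs and between 388 and 430 TPM in the ESCs, and no fibroblast marker was at 0 in any group. Skeletal muscle RNA was also present in the uninduced MEFs, where 18 skeletal and cardiac markers summed to between 139 and 141 TPM and only Myf6 and Myl2 were at 0 in both libraries.

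Uninduced MEFs were rich in contractile transcripts. Their summed TPM was 16993 and 16732, or 1.70% and 1.67% of all TPM. Acta2, which encodes the alpha actin of smooth muscle, was the most abundant member at 6694 and 6710 TPM and ranked 7 among all genes by mean TPM. The alpha tropomyosin gene Tpm1 (4066 and 3940 TPM) and Tagln, which encodes the actin-binding transgelin (3624 and 3440 TPM), came next. They were followed by the caldesmon gene Cald1 (979 and 1006 TPM), the regulatory light chain gene Myl9 (795 and 794 TPM), the beta tropomyosin gene Tpm2 (315 and 307 TPM) and the enteric gamma actin gene Actg2 (273 and 287 TPM). Cnn1, encoding calponin 1 (171 and 171 TPM), and Smtn, encoding smoothelin (63.1 and 63.0 TPM), were lower. Myh11, which encodes the smooth muscle myosin heavy chain and is held to be the most specific marker of mature smooth muscle, was lowest at 12.5 and 13.7 TPM. The order was the same in both libraries. For each pair of neighbours in the order, the 2 libraries of one lay above the 2 of the other. All values are per gene. The authors' annotation holds 10 transcripts for Tpm1, which were not told apart, so its TPM cannot be read as smooth muscle forms alone.

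**Figure D1:**
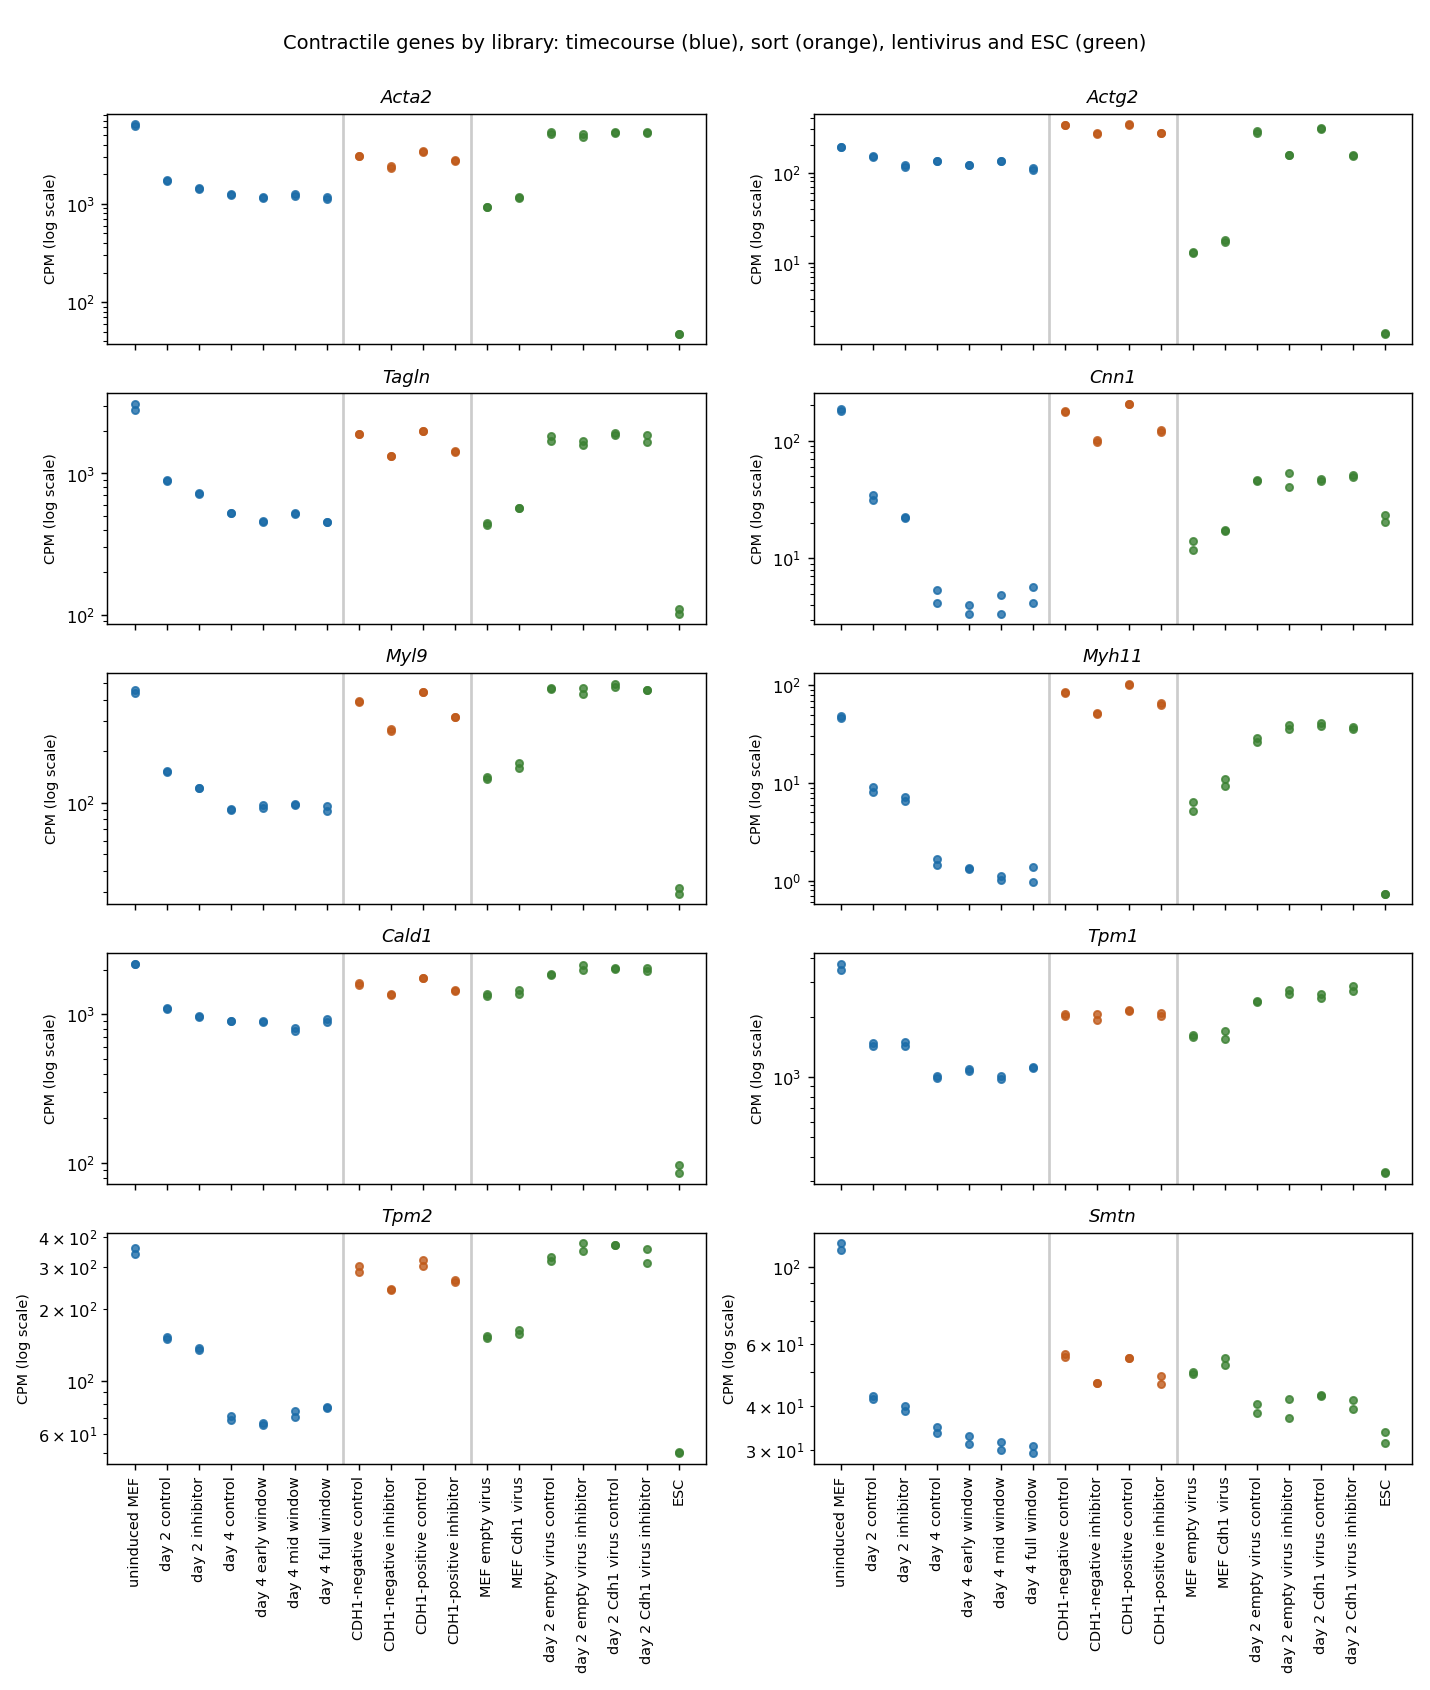
Each panel shows 1 contractile gene, with CPM on a log scale against the 18 groups and 1 point per library. In the timecourse (blue) every gene is highest in the uninduced MEFs, whereas in the lentivirus experiment (green) the MEFs lie below day 2 for every gene but Smtn.

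Reprogramming without inhibitor was first compared with uninduced MEFs in the timecourse. All 10 members fell by day 2 and fell again from day 2 to day 4. Among all 14473 genes tested, 34% were called lower and 40.4% higher at day 2 (74.4% in either direction), 41% were called lower at day 4 against MEFs (82.2% in either direction) and 39.7% were called lower from day 2 to day 4 (77.8% in either direction), so the share of members called is read against a high background. The median log2 change of the members was -1.50 at day 2 against 0.06 over all genes, and -2.31 at day 4 against 0.01 over all genes. In bulk RNA, fewer cells that hold a transcript and less of it per cell cannot be told apart.

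The steepest falls were in Cnn1 and Myh11. Cnn1 stood at 186 and 178 CPM in uninduced MEFs, 34.3 and 31.4 at day 2 and 5.33 and 4.20 at day 4. Myh11 went from 46.0 and 48.5 CPM through 9.11 and 8.06 to 1.68 and 1.45. No library of one time overlapped the next for either gene, and the day 4 means were 2.62% and 3.31% of the MEF means. The log2 changes at day 4 against MEFs were -5.25 ± 0.12 (SE) for Cnn1 and -4.91 ± 0.11 for Myh11, with adjusted p of 1.95e-13 and 6.47e-34. These low levels were not seen in the sort experiment. Cnn1 had 177 (CDH1-negative) and 211 TPM (CDH1-positive) in its day 5.5 controls, against 171 in uninduced MEFs and 4.76 at day 4. Myh11 had 24.9 and 30.9 TPM, against 13.1 and 0.455. Acta2 lay between, at 3466 and 3953 TPM against 6702 and 1398. The 2 experiments were not tested against each other.

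Thin filament and light chain genes came next. Acta2 had 6482 and 6241 CPM in uninduced MEFs, 1730 and 1690 at day 2 and 1254 and 1238 at day 4. Tagln had 3113 and 2837, then 886 and 899, then 529 and 526 CPM. Myl9, whose product is phosphorylated to start contraction, had 457 and 438, then 152 and 151, then 91.8 and 90.2 CPM. The 3 genes lost most of their level by day 2 and between 0.46 and 0.76 log2 more by day 4. Their log2 changes at day 2 were -1.90 ± 0.03, -1.74 ± 0.03 and -1.57 ± 0.03, with adjusted p of 1.02e-36, 3.90e-35 and 1.28e-33.

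The tropomyosin, caldesmon and smoothelin genes fell less, with the exception of Tpm2. Tpm1 had 3730 and 3471 CPM in uninduced MEFs, 1490 and 1445 at day 2 and 1015 and 992 at day 4. Cald1 had 2195 and 2168, then 1093 and 1105, then 907 and 902 CPM. Smtn had 117 and 112, then 41.9 and 42.8, then 34.8 and 33.4 CPM. Cald1 at day 4 kept 41.5% of its MEF level, more than the 27.9% of Tpm1 and 29.8% of Smtn. Tpm2 kept falling after day 2, from 361 and 339 CPM in MEFs and 153 and 150 at day 2 to 71.7 and 68.6 at day 4, with no overlap. Its day 4 to day 2 log2 change of -1.11 ± 0.04 (adjusted p = 2.27e-26) was exceeded among the members only by Cnn1 (-2.78 ± 0.13) and Myh11 (-2.45 ± 0.13).

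Actg2 hardly moved by comparison. It stood at 192 and 194 CPM in uninduced MEFs, 153 and 148 at day 2 and 133 and 134 at day 4. The groups did not overlap, and 69.2% of the MEF level was left at day 4. Its change was -0.36 ± 0.03 log2 at day 2 (adjusted p = 1.64e-12) and -0.17 ± 0.03 from day 2 to day 4 (adjusted p = 2.63e-05). Without scaling for composition, the latter was -0.06 with an adjusted p of 0.0963, so that call rests on the scaling. Actg2 thereby rose from position 7 among the members by TPM in MEFs to position 5 at day 4. The reads of Acta2 and Actg2, and of the skeletal actin Acta1, come from near-identical coding sequences that the authors' software divides by a model, so small differences between them are uncertain.

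Other genes of the same machinery moved with the members at day 2. Of 23 further smooth muscle genes, 22 were tested, 21 were called lower and none higher, with a median log2 change of -1.37. Lmod1, a leiomodin that nucleates actin filaments, changed by -2.81 ± 0.07, the LIM protein gene Fhl2 by -2.58 ± 0.05 and Cnn2, a broadly expressed calponin, by -1.15 ± 0.03. Of 11 non-muscle paralogs of the members, 8 were called lower and 1 higher with a median of -0.34. Tpm4 changed by -0.79 ± 0.03 and the non-muscle myosin Myh9 by -0.80 ± 0.03, while the light chain gene Myl12b rose by 0.90 ± 0.05. The TGF-beta ligand gene Tgfb3 changed by -1.75 ± 0.04.

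From day 2 to day 4 the other genes were mixed. Among all genes tested, 38.1% were called higher and 39.7% lower. The further smooth muscle genes lay near these shares, with 10 called higher and 8 lower and a median of 0.01. The members had 10 of 10 called lower with a median of -0.64. Mylk, encoding the kinase that phosphorylates the regulatory light chain, rose by 1.79 ± 0.06, while Actn1, an alpha-actinin gene, changed by -0.82 ± 0.03. Srf itself changed by -0.62 ± 0.04. Of the fibroblast markers 8 of 12 were called higher and 2 lower.

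Markers of other cells moved in both directions at day 2. Called lower were 12 of 12 fibroblast markers (median -1.35), 8 of 9 vascular smooth muscle and pericyte markers (median -2.48) and 12 of 12 tested skeletal and cardiac markers (median -5.47), with none higher in these lists. Endothelial markers rose from a mean sum of 7.45 TPM in uninduced MEFs to 31.5 TPM at day 2. Epithelial markers rose from 63.7 to 132 TPM. The part of these cells in the result was not tested.

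Macrophage and leukocyte markers also moved over these days. Of 7 symbols, 6 were in the files, and none was at 0 in both libraries of any group. They summed to 321 and 329 TPM in uninduced MEFs, 44.9 and 41.9 at day 2 and 178 and 176 at day 4. They were lower at day 2 with the members and higher at day 4 while the members were lower still. Their part in the result was not tested.

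The lentivirus experiment gave the opposite direction. Between MEFs with the empty virus and day 2 cells with it, 9 members rose and Smtn fell, with a median log2 change of 1.78 against a fall in the timecourse over the same days. Among all 15044 genes tested, 33.4% were called higher and 32.7% lower (66% in either direction). With the Cdh1 virus 9 members again rose and Smtn again fell, with a median of 1.49 and a range from -0.32 ± 0.07 (Smtn) to 4.13 ± 0.07 (Actg2), and again 66% of all genes were called (33.4% higher, 32.6% lower). The 2 virus comparisons use different libraries throughout.

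The largest rises were in the actins. Acta2 stood at 931 and 930 CPM in MEFs with the empty virus and at 5368 and 5143 CPM in day 2 cells with it. Actg2 stood at 13.0 and 13.3 CPM and then at 287 and 273 CPM. These actins rose by 2.50 ± 0.06 and 4.41 ± 0.07 log2, or 5.65-fold and 21.2-fold, with adjusted p of 5.27e-20 and 5.82e-24. Tagln went from 447 and 431 to 1841 and 1697 CPM, Myl9 from 138 and 141 to 459 and 467 CPM and Myh11 from 6.45 and 5.21 to 28.9 and 26.2 CPM. Cnn1 went from 14.1 and 11.7 to 45.1 and 46.3 CPM. No MEF library of these 6 genes reached a day 2 library, and their changes ran from 1.73 ± 0.06 (Myl9) to 4.41 ± 0.07 (Actg2).

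Smaller rises were seen in Tpm2 (1.08 ± 0.06), Tpm1 (0.58 ± 0.06) and Cald1 (0.46 ± 0.07 log2). Smtn, which anchors to actin in contractile cells, went from 50.2 and 49.4 to 40.5 and 38.1 CPM, a change of -0.34 ± 0.07 (adjusted p = 0.000259). Smtn was the member that moved in 1 direction in both experiments.

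**Figure D2:**
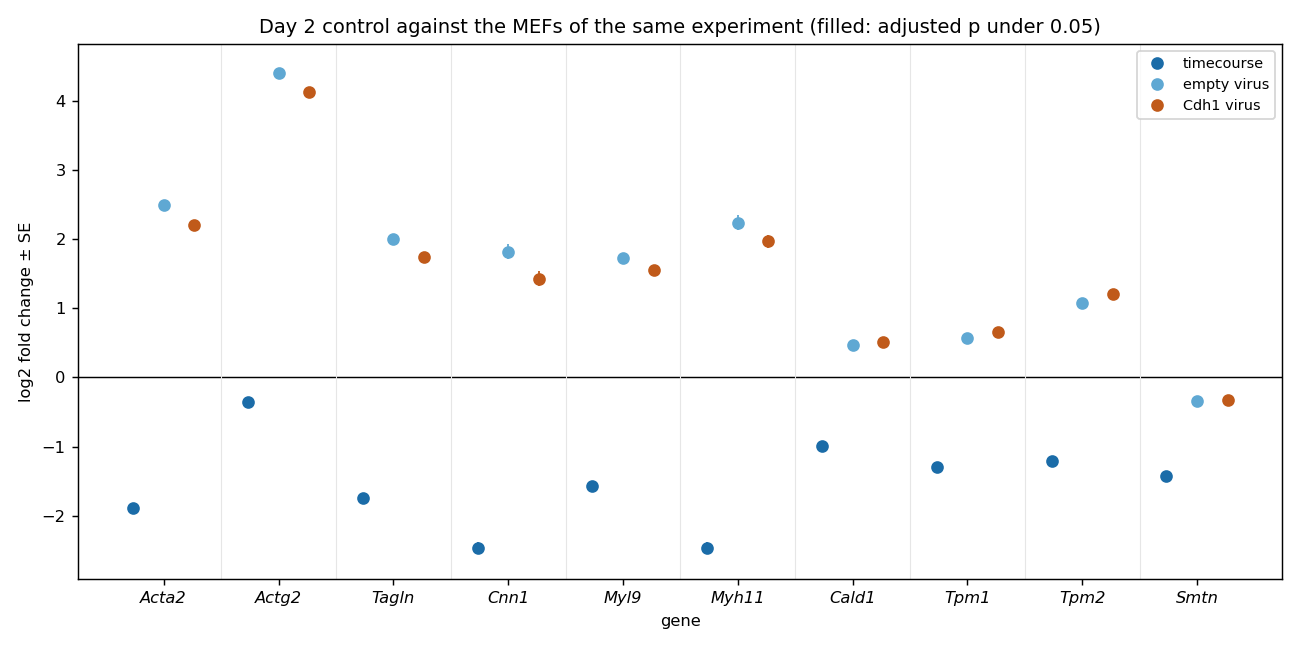
Log2 fold change with SE of day 2 control cells against the MEFs of the same experiment, for each contractile gene; all points are filled because all adjusted p are under 0.05. The timecourse points lie between -2.47 and -0.36, and those of both viruses lie above 0 for every gene but Smtn.

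A joint fit over both sets of libraries, added after these opposite changes were seen, tested the difference between the 2 day 2 changes. All 10 members were called higher in the empty virus comparison, where 29.1% of 15452 genes were called higher (54.9% in either direction). The median difference was 3.54 log2. It ran from 1.11 ± 0.08 in Smtn (adjusted p = 2.57e-14) to 4.79 ± 0.07 in Actg2 (adjusted p = 1.68e-35), with Acta2 at 4.41 ± 0.07, Myh11 at 4.72 ± 0.14 and Cnn1 at 4.31 ± 0.18. Of the further smooth muscle genes 16 of 22 were called higher and 2 lower, with Lmod1 at 4.29 ± 0.11. Of the non-muscle paralogs 8 of 11 were called higher and 2 lower, with Tagln2 at 1.58 ± 0.07 and Tpm4 at 1.60 ± 0.08.

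Several measured facts stand beside this difference. The members summed to 5406 and 5507 TPM in MEFs with the empty virus against 16993 and 16732 in the uninduced MEFs of the timecourse. They summed to 13999 and 13462 TPM at day 2 with the empty virus against 5877 and 5783 at day 2 in the timecourse, so both ends of the comparison differed. The macrophage and leukocyte markers, 6 of 6 called lower from MEFs to day 2 with the empty virus, summed to 2699 and 2961 TPM in the MEFs and 386 and 359 TPM at day 2. Lyz2, a macrophage lysozyme gene, had a mean of 1128 CPM in those MEFs and 143 CPM in the uninduced ones. The fibroblast markers summed to 18406 and 19218 TPM in MEFs with the empty virus, somewhat above the uninduced MEFs, and 11 of 12 were called lower at day 2. The part of the macrophage RNA in the result was not tested. The virus and the spiked human RNA and paired-end reads, which the labels give for the timecourse and sort libraries only, changed together between the experiments and cannot be told apart.

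**Figure D3:**
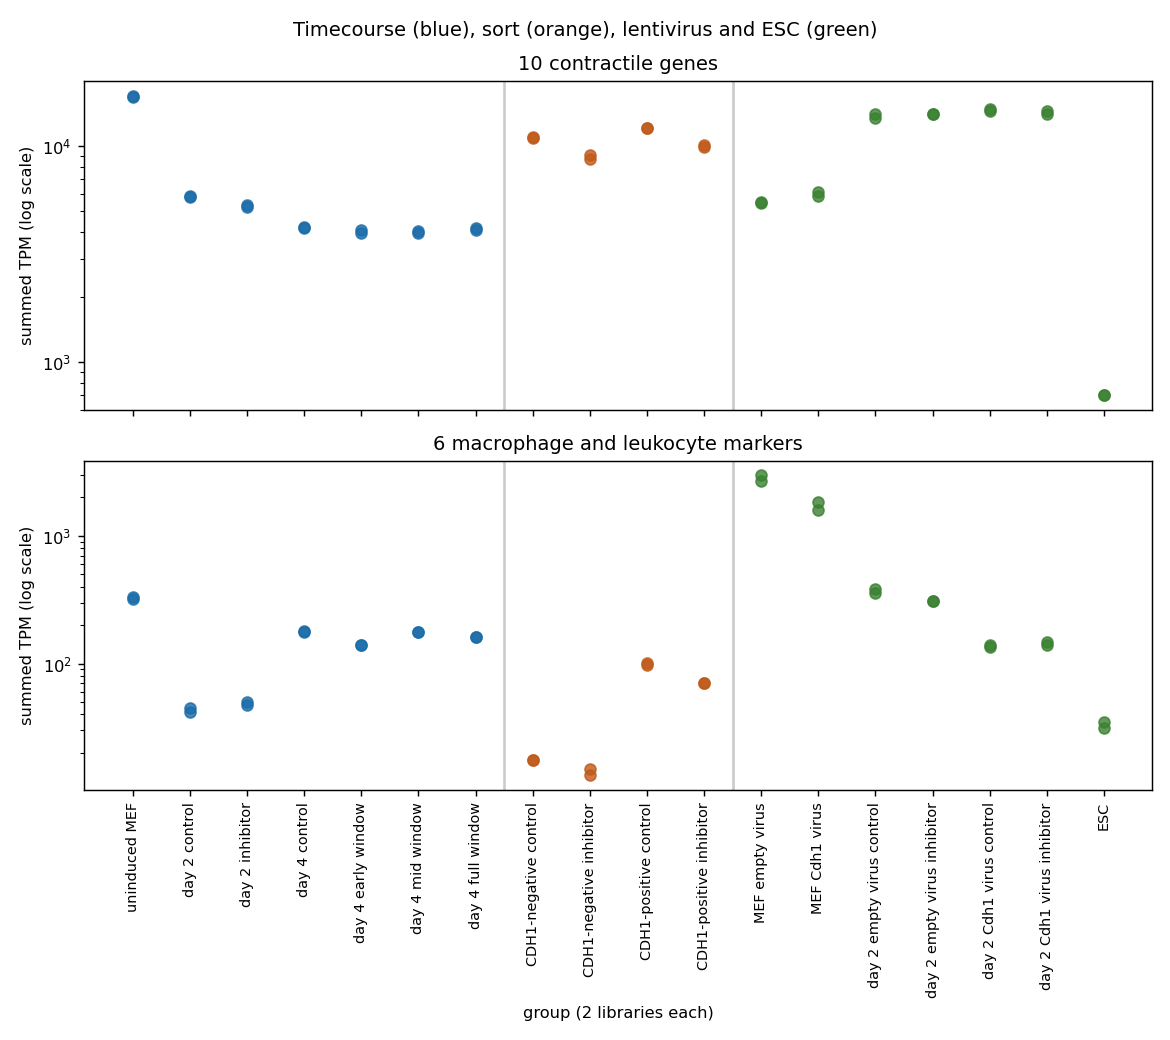
Summed TPM on a log scale of the 10 contractile genes (top) and of 6 macrophage and leukocyte markers (bottom), 1 point per library. MEFs with the empty virus hold between 5406 and 5507 TPM of contractile transcripts and between 2699 and 2961 TPM of macrophage transcripts, while uninduced MEFs of the timecourse hold between 16732 and 16993 TPM and between 321 and 329 TPM.

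DOT1L inhibition was compared with DMSO at day 2 of the timecourse. The members fell by a modest amount, with 8 of 10 called lower and none higher, where 9.11% of all genes were called lower, 8.73% higher and 17.8% in either direction. Acta2 stood at 1432 and 1419 CPM with SGC0946 against 1730 and 1690 with DMSO. Tagln stood at 730 and 715 against 886 and 899 CPM, and Actg2 at 116 and 120 against 153 and 148 CPM. The inhibitor libraries of these 3 genes all lay below the DMSO libraries, with changes of -0.26 ± 0.03, -0.30 ± 0.03 and -0.35 ± 0.03 log2 (adjusted p = 9.87e-08, 6.95e-09 and 7.13e-10). Cnn1 had the largest change, from 34.3 and 31.4 to 22.5 and 22.2 CPM, or -0.56 ± 0.10 (adjusted p = 0.00261).

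Not all members followed. Tpm1 was at 1512 and 1444 CPM with SGC0946 against 1490 and 1445 with DMSO, overlapping, with a log2 difference of 0.01 ± 0.03 (adjusted p = 0.887). Smtn was at 40.1 and 38.7 against 41.9 and 42.8 CPM, a difference of -0.10 ± 0.05 (adjusted p = 0.138). The Myh11 call, -0.32 ± 0.10 with an adjusted p of 0.0179, was lost without day 2 control replicate 1 (-0.23, adjusted p = 0.242) and without day 2 inhibitor replicate 2 (-0.26, adjusted p = 0.19), and with DESeq2 (adjusted p = 0.0543) and limma on log2(TPM + 1) (adjusted p = 0.136). With limma the calls of Cnn1 (-0.50, adjusted p = 0.0632) and Tpm2 (-0.12, adjusted p = 0.061) were lost too. The remaining calls were Myl9 at -0.32 ± 0.04, Cald1 at -0.18 ± 0.03 and Tpm2 at -0.16 ± 0.04.

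Other lists were examined at the same time. Among the further smooth muscle genes 11 of 22 were called lower and 1 higher, with Vcl, encoding vinculin, at -0.18 ± 0.03. Mkl1 changed by -0.24 ± 0.05 and Tgfb1 by 0.31 ± 0.06. Of the fibroblast markers 5 of 12 were called higher and none lower.

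The day 4 windows left smaller and mixed differences. With the early window, where 2.45% of all genes were called lower, 3.19% higher and 5.63% in either direction, Tagln (459 and 450 CPM against 529 and 526) and Actg2 (121 and 121 against 133 and 134) were called lower and Tpm1 (1076 and 1108 against 1015 and 992) higher. The libraries of the 2 groups did not overlap in these 3 genes. That does not set them apart, since 7 members lay wholly below the control, 2 wholly above and 1 overlapped. The differences of the 3 called members were -0.21 ± 0.03, -0.15 ± 0.03 and 0.12 ± 0.03 log2. Only the Tagln call stayed without any 1 of the 4 libraries. Without each library of either group in turn, the adjusted p ran from 0.0519 to 0.0813 for Actg2 and from 0.0523 to 0.28 for Tpm1. The members not called were Acta2 (-0.10 ± 0.03), Cnn1 (-0.37 ± 0.19), Myh11 (-0.22 ± 0.18), Smtn (-0.09 ± 0.05), Tpm2 (-0.08 ± 0.04), Cald1 (-0.01 ± 0.03) and Myl9 (0.06 ± 0.04). Acta2 lay near the threshold. It was called lower with DESeq2 (adjusted p = 0.0441) and limma (0.0342). In edgeR it was called lower with RLE scaling (0.0475), total count scaling (0.0279) or no filter on low counts (0.0246). Without that filter Cnn1 was called lower too (-0.38, adjusted p = 0.0126).

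With the mid window, 3 members were called lower and 1 higher. Among all 14473 genes tested, 1948 were called lower and 2020 (14%) higher, with 27.4% called in either direction. Cald1 was at 805 and 770 CPM against 907 and 902, a difference of -0.20 ± 0.03 (adjusted p = 3.70e-06). This was the mid window call that held without each library. Myl9 (0.10 ± 0.04, adjusted p = 0.0347) lost its call without each of the 4 libraries, at adjusted p from 0.092 to 0.246. Myh11 (-0.55 ± 0.20, adjusted p = 0.0348) lost it without day 4 control replicate 1 or either mid window library, at adjusted p from 0.0874 to 0.231. Smtn (-0.15 ± 0.05, adjusted p = 0.0241) lost it without replicate 1 of the day 4 control (-0.12, adjusted p = 0.199) and without replicate 1 of the mid window (-0.13, adjusted p = 0.167). The members not called were Cnn1 (-0.22 ± 0.20), Acta2 (-0.03 ± 0.03), Tagln (-0.02 ± 0.03), Tpm1 (-0.01 ± 0.03), Actg2 (0.01 ± 0.03) and Tpm2 (0.06 ± 0.04).

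With the full window, 4 members were called lower and 2 higher, where 15.8% of all genes were called lower, 19% higher and 34.8% in either direction. Actg2 was at 113 and 107 CPM against 133 and 134, and Tagln at 455 and 450 against 529 and 526. Tpm1 stood higher, at 1124 and 1114 CPM against 1015 and 992. These 3 genes kept their calls without each library, with differences of -0.29 ± 0.03, -0.22 ± 0.03 and 0.16 ± 0.03 log2. Tpm2 was at 77.7 and 77.0 CPM against 71.7 and 68.6, a difference of 0.14 ± 0.04 (adjusted p = 0.00504). It was not called without day 4 control replicate 2 (0.10, adjusted p = 0.153) or without full window replicate 1 (0.12, adjusted p = 0.055). Acta2 (-0.12 ± 0.03) and Smtn (-0.19 ± 0.05) were not called without day 4 control replicate 1 or without full window replicate 2, at adjusted p of 0.0557 and 0.158 for Acta2 (-0.11 and -0.07) and 0.0696 and 0.0658 for Smtn (-0.16 and -0.15). The members not called were Myh11 (-0.42 ± 0.18), Cald1 (0.01 ± 0.03), Myl9 (0.02 ± 0.04) and Cnn1 (0.03 ± 0.18).

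Other genes of the machinery were split at the full window too. Of the further smooth muscle genes 9 of 22 were called higher and 7 lower, with Mylk at 0.65 ± 0.05, and of the non-muscle paralogs 8 of 11 were called higher and none lower, with Tagln2 at 0.35 ± 0.04. Vascular smooth muscle and pericyte markers were higher in the same comparison, 6 of 9 called and none lower, with Mcam, a cell adhesion gene of pericytes, at 1.03 ± 0.05. Their part in the result was not tested.

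The windows were also set against each other and against day 2. Early against mid window gave 2 members higher (Cald1 at 0.19 ± 0.03 and Tpm1 at 0.13 ± 0.03) and 3 lower (Tagln at -0.19 ± 0.03, Actg2 at -0.16 ± 0.04 and Tpm2 at -0.14 ± 0.04), where 11% of all genes were called higher, 10.3% lower and 21.2% in either direction. The Tpm1 and Tpm2 calls were each lost without 1 of 2 libraries, early window replicate 2 for both, mid window replicate 2 for Tpm1 and mid window replicate 1 for Tpm2, at adjusted p from 0.0644 to 0.0832 and from 0.123 to 0.233. The inhibitor effect at day 4 with the full window minus that at day 2 was called higher for 5 members and lower for none, where 5.61% of all genes were called higher, 3.57% lower and 9.18% in either direction. The differences were 0.34 ± 0.05 for Myl9, 0.30 ± 0.05 for Tpm2, 0.19 ± 0.04 for Cald1, 0.15 ± 0.05 for Tpm1 and 0.14 ± 0.05 for Acta2. Those of Myl9 and Tpm2 kept their calls without each library. Cald1 lost its call without day 2 inhibitor replicate 2 (0.16, adjusted p = 0.0607), Acta2 lost it without 7 of the 8 libraries and Tpm1 without all 8, at adjusted p up to 0.365 and 0.346.

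In the sorted cells nearly every member was lower with the inhibitor. With SGC0946 from day 3.5 to day 5.5, 9 of 10 members were called lower in the CDH1-negative and 9 of 10 in the CDH1-positive fraction, and none higher. Among all 13968 genes 10.8% and 10.5% were called lower and 7.82% and 8.33% higher (18.7% and 18.8% in either direction). The median log2 changes of the members were -0.36 and -0.30. The exception was Tpm1 in both fractions, at -0.03 ± 0.02 (adjusted p = 0.429) and -0.06 ± 0.02 (adjusted p = 0.087). Without CDH1-negative inhibitor replicate 2 (-0.08, adjusted p = 0.0177) or CDH1-positive inhibitor replicate 1 (-0.09, adjusted p = 0.0337) Tpm1 was called lower too.

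Cnn1 led in both fractions. It went from 174 and 180 CPM with DMSO to 98.2 and 101 with SGC0946 in CDH1-negative cells, and from 205 and 203 to 122 and 118 CPM in CDH1-positive cells. Myh11 went from 85.4 and 84.1 to 50.7 and 52.7 CPM, and from 104 and 101 to 65.3 and 62.4 CPM. In both genes and fractions the inhibitor libraries were all below the DMSO libraries. The changes were -0.83 ± 0.03 and -0.76 ± 0.03 for Cnn1 and -0.71 ± 0.04 and -0.68 ± 0.04 for Myh11, with adjusted p of 1.14e-43 and 4.20e-42, and of 2.50e-31 and 6.39e-32.

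The remaining members were graded between these and Tpm1. Tagln went from 1894 and 1892 to 1321 and 1329 CPM in CDH1-negative cells and from 2002 and 1997 to 1425 and 1436 CPM in CDH1-positive cells. Acta2 went from 3056 and 3098 to 2305 and 2416 CPM, and from 3385 and 3443 to 2795 and 2727 CPM. Myl9 went from 385 and 390 to 263 and 268 CPM, and from 441 and 441 to 315 and 318 CPM. The 3 changes were -0.52 ± 0.02, -0.38 ± 0.02 and -0.55 ± 0.03 in the CDH1-negative and -0.48 ± 0.02, -0.31 ± 0.02 and -0.48 ± 0.03 in the CDH1-positive fraction. Actg2, Tpm2, Smtn and Cald1 changed by between -0.33 and -0.21 log2 in the 2 fractions.

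The 2 fractions gave side by side values with no shared library. Over the 10 members the changes had a Pearson r of 0.99 between fractions, as a description of 10 genes measured in the same libraries. No member was called for a difference between the fractions' inhibitor effects by edgeR, where 0.186% of all genes were called, 0.0501% higher and 0.136% lower. At an unadjusted p under 0.05 there was 1 member, and DESeq2 and limma also called 0. The differences ranged from -0.05 ± 0.03 in Cald1 to 0.08 ± 0.03 in Acta2 on the log2 scale.

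The order of the members by inhibitor effect was set beside that by day 2 change. Cnn1 and Myh11 had the largest falls in both. Across the 10 genes the day 2 change of the timecourse and the inhibitor effect in CDH1-negative cells, which share no library, had a Pearson r of 0.74 and a Spearman rank correlation of 0.77. In the CDH1-positive cells the values were 0.72 and 0.73. With the lentivirus libraries the values were lower. The day 2 changes of the timecourse and of the empty virus had values of 0.11 and -0.28, and the day 2 inhibitor effects of the 2 experiments 0.25 and 0.38. These are descriptions over 10 genes, which are not independent replicates. Genes that touch the same machinery were lower with the inhibitor as well. Of the further smooth muscle genes 16 and 17 of 22 were called lower in the 2 fractions and none higher, with Lpp, encoding a focal adhesion LIM protein, at -0.53 ± 0.03 and -0.43 ± 0.03 and Vcl at -0.32 ± 0.02 and -0.32 ± 0.02. Of the non-muscle paralogs 5 and 5 of 11 were called lower, with Myh10 at -0.31 ± 0.02 and -0.32 ± 0.02. Tgfb3 changed by -0.27 ± 0.03 and -0.28 ± 0.03. Fibroblast markers were called lower for 6 and 4 of 12 and higher for 1 and 1, with medians of -0.06 and -0.05. Macrophage and leukocyte markers summed to a mean of 14.2 TPM with SGC0946 against 17.6 in CDH1-negative cells, and to 71.0 and 70.6 against 96.7 and 101 in CDH1-positive cells, with 1 and 3 of 6 called lower. Vascular smooth muscle and pericyte markers summed to a mean of 87.4 TPM against 99.1, and to 104 and 103 against 112 and 115, with 2 and 2 of 9 called lower. Epithelial markers rose, with 7 and 8 of 8 called higher and sums of 341 and 338 TPM against 249 and 259, and of 472 and 463 against 350.0 and 343. The part of these lists in the result was not tested.

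**Figure D4:**
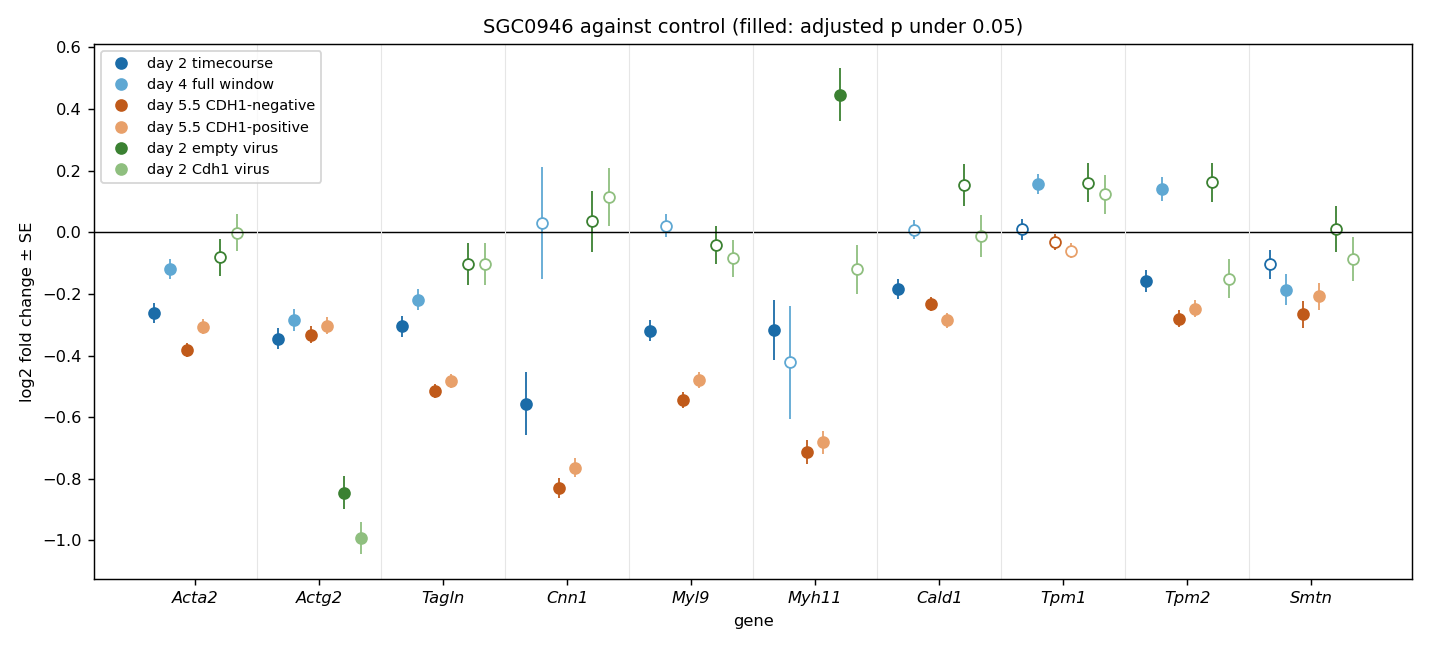
Log2 fold change with SE of SGC0946 against DMSO for each contractile gene in 6 settings; filled points have an adjusted p under 0.05. The sorted fractions (orange) lie below 0 for every gene, from -0.83 for Cnn1 to -0.03 for Tpm1, and the lentivirus points (green) lie furthest below 0 for Actg2.

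Sorted cells that displayed CDH1 had slightly more contractile RNA than those that did not. Of the members 8 were called higher in CDH1-positive than in CDH1-negative control cells and none lower, where 12.8% of all genes were called higher and 26.6% in either direction. The differences were small. Myh11 had 104 and 101 CPM against 85.4 and 84.1, and Cnn1 205 and 203 against 174 and 180. Acta2 had 3385 and 3443 CPM against 3056 and 3098. In these 3 genes all CDH1-positive libraries were above all CDH1-negative ones, with differences of 0.27 ± 0.04, 0.21 ± 0.03 and 0.15 ± 0.02 log2 (adjusted p = 9.23e-10, 1.78e-08 and 1.10e-07). Myl9 (0.19 ± 0.03), Cald1 (0.14 ± 0.02) and Tagln (0.08 ± 0.02) were also called, and Actg2 (0.01 ± 0.03) and Smtn (-0.02 ± 0.04) were not.

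The calls of the tropomyosins depend on the test and on single libraries. With DESeq2 on all libraries neither Tpm1 (adjusted p = 0.251) nor Tpm2 (adjusted p = 0.0821) was called. Tpm1 (0.07 ± 0.02) was not called without CDH1-negative control replicate 2 or either CDH1-positive control library, at adjusted p from 0.0538 to 0.161. Tpm2 (0.08 ± 0.03) was not called without CDH1-negative control replicate 1 or CDH1-positive control replicate 1, at adjusted p of 0.354 and 0.455. Macrophage and leukocyte markers moved with this comparison. All 6 were called higher in the CDH1-positive cells, with a median of 2.44 and Emr1, a macrophage surface receptor gene, at 4.43 ± 0.25. They summed to 96.7 and 101 TPM against 17.7 and 17.6 TPM. The vascular smooth muscle and pericyte markers were called higher for 4 of 9 and lower for none, with Mcam at 0.29 ± 0.05. The part of these cells in the result was not tested.

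In the lentivirus experiment few members were called for the inhibitor effect at day 2, and Actg2 was the only one called under both viruses. The fitted coefficient of variation between libraries of a group was 5.56% there against 2.95% in the timecourse. Changes as small as those of the timecourse could therefore go uncalled. Actg2 stood at 155 and 157 CPM with SGC0946 against 287 and 273 with DMSO under the empty virus, and at 157 and 151 against 303 and 311 under the Cdh1 virus. All inhibitor libraries were far below all DMSO libraries. The changes were -0.84 ± 0.05 (adjusted p = 1.35e-09) and -0.99 ± 0.05 (adjusted p = 3.39e-11), each larger than the -0.35 ± 0.03 of the timecourse. Under the empty virus 2 members were called, where 6.73% of all genes were called, and under the Cdh1 virus Actg2 alone, where 5.05% were called.

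The second call under the empty virus was a rise of Myh11, from 28.9 and 26.2 to 35.7 and 39.1 CPM (0.45 ± 0.09, adjusted p = 0.00228). Without day 2 empty virus control replicate 2 it was 0.38 with an adjusted p of 0.0595. Acta2 was at 5096 and 4839 CPM with SGC0946 against 5368 and 5143 under the empty virus (-0.08 ± 0.06, adjusted p = 0.467), and the libraries of the 2 groups overlapped for Tagln (-0.10 ± 0.07) and Cnn1 (0.03 ± 0.10). The other 5 members differed by between -0.04 ± 0.06 (Myl9) and 0.16 ± 0.06 (Tpm2) under the empty virus. Under the Cdh1 virus the 9 members not called differed by between -0.15 ± 0.06 (Tpm2) and 0.12 ± 0.06 (Tpm1). None of the members was called by edgeR, DESeq2 or limma for a difference between the inhibitor effects under the 2 viruses, 2 having an unadjusted p under 0.05 in edgeR, and 0% of all genes were called. Myh11 had the largest difference, at -0.57 ± 0.12. In edgeR without the filter on low counts it was called (-0.56, adjusted p = 0.0469).

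The joint fit tested the day 2 inhibitor effect between experiments. Under the empty virus minus the timecourse 4 members were called higher (Myh11 at 0.76 ± 0.13, Cald1 at 0.34 ± 0.07, Tpm2 at 0.32 ± 0.07, Myl9 at 0.28 ± 0.07) and Actg2 lower at -0.50 ± 0.06 (adjusted p = 1.08e-06), where 3.39% of all genes were called. Myl9 was not called without day 2 empty virus control replicate 1 (0.27, adjusted p = 0.0541) or day 2 empty virus inhibitor replicate 2 (0.23, adjusted p = 0.058). Under the Cdh1 virus minus the timecourse Cnn1 (0.67 ± 0.17), Acta2 (0.26 ± 0.07) and Myl9 (0.23 ± 0.07) were called higher and Actg2 lower at -0.65 ± 0.06 (adjusted p = 4.31e-09), where 2.87% were called. Of these only Actg2 kept its call without each library in turn. Acta2 and Myl9 each lost it without 6 of the 8 and Cnn1 without all 8, at adjusted p up to 0.0987, 0.175 and 0.159.

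The Cdh1 virus itself was compared with the empty virus. In MEFs 4 members were called higher with it and none lower, where 0.612% of all genes were called higher and 1.14% in either direction. Myh11 had 9.44 and 11.0 CPM against 6.45 and 5.21, Tagln 572 and 573 against 447 and 431, Acta2 1174 and 1153 against 931 and 930 and Actg2 17.9 and 16.9 against 13.0 and 13.3. The libraries of the 2 groups did not overlap in 9 of the 10 members, uncalled ones among them, so this does not set the 4 apart. The share of all genes without overlap was not counted. The differences of the 4 were 0.80 ± 0.12, 0.38 ± 0.07, 0.32 ± 0.06 and 0.41 ± 0.08 log2, with adjusted p of 0.000289, 0.00193, 0.00345 and 0.00318. Macrophage and leukocyte markers were lower in the same comparison, 5 of 6 called, at 1822 and 1593 TPM against 2699 and 2961 TPM, and their part in the result was not tested.

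Only the Myh11 call in MEFs held without each library. Acta2 and Actg2 lost theirs without either empty virus library or without Cdh1 virus replicate 1, at adjusted p up to 0.0846 and 0.0872, and Tagln without empty virus replicate 2 (0.36, adjusted p = 0.0857). Not called were Cnn1 (0.41 ± 0.12), Myl9 (0.23 ± 0.06), Smtn (0.11 ± 0.07), Cald1 (0.07 ± 0.07), Tpm2 (0.06 ± 0.06) and Tpm1 (0.02 ± 0.06). Without Cdh1 virus replicate 2, the library with the label in doubt, the count stayed at 4. At day 2 Myh11 alone was called, at 41.0 and 38.6 CPM with the Cdh1 virus against 28.9 and 26.2 (0.53 ± 0.08, adjusted p = 0.00067), where 0.897% of all genes were called. Without day 2 empty virus control replicate 2 it was 0.46 with an adjusted p of 0.0506. The Myh11 rise with SGC0946 under the empty virus uses the same 2 control libraries, so the 2 calls are not independent. Mean Myh11 was 27.5 CPM in those controls and 37.4 with SGC0946 under the empty virus. Under the Cdh1 virus it was 39.8 with DMSO and 36.6 with SGC0946. The joint fit's Myh11 difference under the empty virus uses these controls too. The other 9 members differed between viruses by between 0.02 ± 0.10 (Cnn1) and 0.19 ± 0.06 (Tpm2). Macrophage and leukocyte markers were lower here too, 5 of 6 called, at 139 and 136 TPM against 386 and 359, and their part in the result was not tested.

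ESCs held little contractile RNA, 702 and 701 TPM for the sum of the 10 genes. Against MEFs with the empty virus 9 members were lower and Cnn1 higher, where 44.1% of all genes were called lower and 44.5% higher (88.7% in either direction). Acta2 was at 47.6 and 47.5 CPM against 931 and 930, or -4.29 ± 0.07 log2 (adjusted p = 5.70e-25), and Cald1 at 85.3 and 97.8 against 1324 and 1368 CPM, or -3.88 ± 0.08. Actg2 (1.68 and 1.66 CPM) and Myh11 (0.739 and 0.739 CPM) were nearly silent. Cnn1 was at 23.4 and 20.5 CPM against 14.1 and 11.7, a difference of 0.76 ± 0.12 (adjusted p = 2.90e-06). Its mean was 19.3 TPM in ESCs but 171 TPM in the uninduced MEFs of the timecourse. The direction for Cnn1 thus depends on the MEF group, and ESCs were not tested against the timecourse. The other falls were -2.28 ± 0.07 for Tpm1, -2.19 ± 0.07 for Myl9, -2.06 ± 0.07 for Tagln and -1.61 ± 0.07 for Tpm2. Smtn changed least, from 50.2 and 49.4 to 31.3 and 33.6 CPM.

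What remained in ESCs was mainly Tpm1, counted over all its transcripts. It made up 52.5% of the members' summed TPM there, against 41.4% in MEFs with the empty virus and 23.7% in uninduced MEFs of the timecourse. Acta2 made up 6.68% in ESCs, against 22.4% and 39.7% in those MEFs. Shares moved less among the reprogramming groups, where Acta2 ran from 30.1% in day 2 inhibitor cells to 43.4% in day 2 empty virus controls. Shares are within a library and can change because any member changes.

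**Figure D5:**
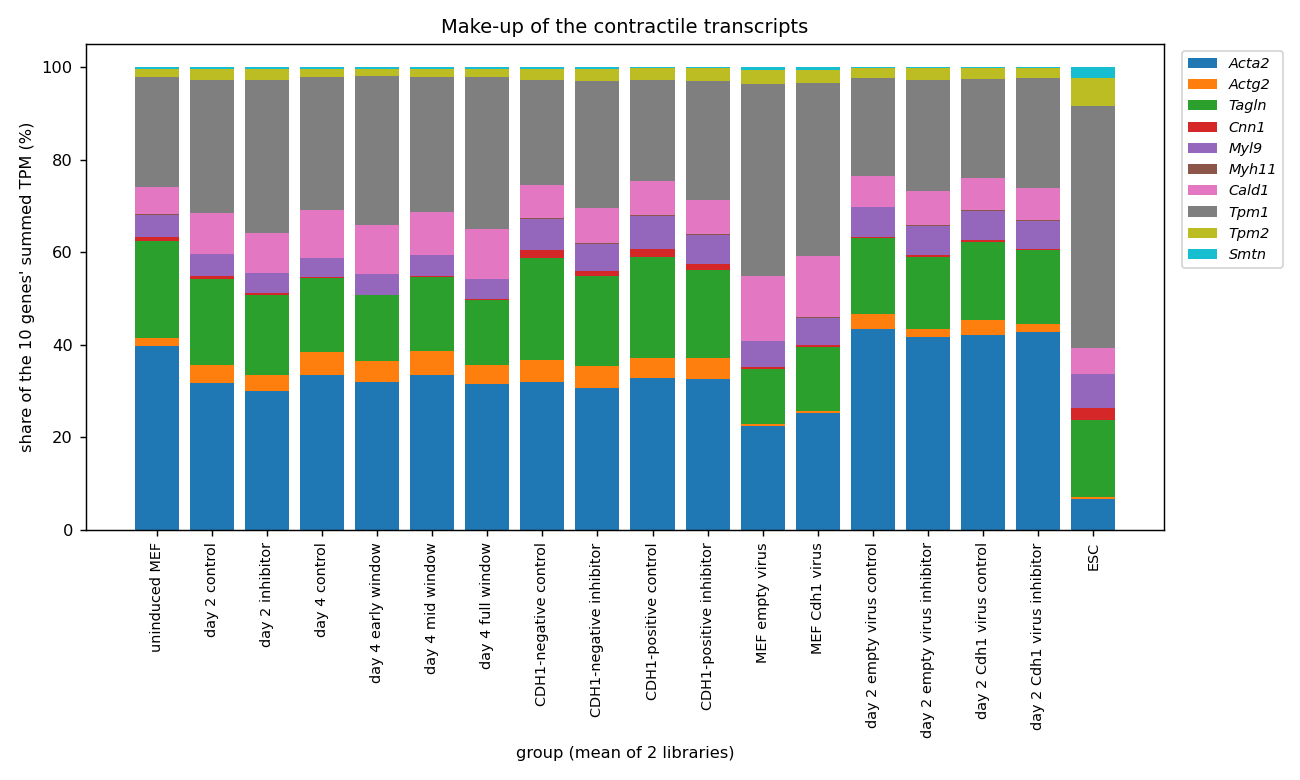
Stacked bars of the share (%) of the 10 genes' summed TPM held by each gene, as the mean of the 2 libraries of each group. Acta2 holds 39.7% in uninduced MEFs of the timecourse, 22.4% in MEFs with the empty virus and 6.68% in ESCs. Tpm1 holds 23.7%, 41.4% and 52.5% in the same groups.

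Across the 18 groups the members varied together to unequal degrees. The correlation of a gene's group means (log2 CPM) with the mean of the other members was highest for Tagln (Pearson r = 0.98), Myl9 (0.97) and Tpm1 (0.96) and lowest for Actg2 (0.71) and Smtn (0.62). Without the ESCs it was 0.92 for Cnn1 instead of 0.73, and 0.50 for Actg2. The groups share experiments and controls, so these values are descriptions. By the same measure over the 9828 genes that averaged 3 or more on the log2 CPM scale, the genes most like the members' mean were Mtap6 (r = 0.98), Mprip (0.97), Bcl2l1 (0.96), Cdipt (0.96), Nt5c (0.96), Gltpd1 (0.96), Tpst2 (0.96) and Tll1 (0.96). Mprip encodes a protein that binds myosin phosphatase. Without the ESCs Mtap6 and Mprip still stood at ranks 2 and 5, while Bcl2l1 stood at rank 36.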

How the data were processed

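RNA sequencing was deposited as 1 table per library. Trimmomatic, Bowtie and RSEM (1.2.4) are the tools, and mm9 and hg18 the builds, that stand in the submitters' processing notes; other settings are not given in the sources used here. The deposited expected counts are RSEM's estimates per gene, which divide reads shared by several genes, and are not normalized. The deposited TPM values are scaled by RSEM for gene length and library. Per the labels, libraries came from 1 µg RNA with a TruSeq kit, and 20 ng human 293T RNA was added to timecourse and sort libraries.

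Expected counts were rounded and tested with edgeR 4.0.16 in R 4.3.3 (robust quasi-likelihood, TMM, filterByExpr with a minimum count of 10 and a minimum total of 15), with 1 coefficient per group and Benjamini-Hochberg adjustment over all genes tested at 0.05. The timecourse (14 libraries, 14473 genes), sort (8 libraries, 13968 genes) and lentivirus with ESC (14 libraries, 15044 genes) were fitted separately. A joint fit (28 libraries, 15452 genes) was added later. SE is the log2 change over the root of F. By the rule for named genes, all 10 members were taken in each comparison (the uncalled ones as a range, or left out where 2 effects are compared), of the other lists up to 4 called genes with the smallest p, and the 8 genes most alike; the rule's landmark genes are not shown. Members and lists were chosen with earlier results of these data known. The edgeR script was tested on simulated data. Chi-square per degree of freedom between libraries of a group was 1.86 to 13.9, so none was a copy. The files' build was not at hand, so no coordinate was taken from them. Alternatives were DESeq2 1.42.0, limma 3.58.1 on log2(TPM + 1), RLE scaling, no filter, total count scaling, a replicate block and leaving out each library. Some items are not reported here.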

Additional observations from a re-analysis of the deposited data

Results flagged for a closer look

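The following differences between effects passed the test of the difference itself; all are log2 values, and no explanation was weighed. The day 2 change under the empty virus minus that of the timecourse was 4.41 for Acta2, 4.79 for Actg2, 3.76 for Tagln, 4.31 for Cnn1, 3.31 for Myl9, 4.72 for Myh11, 1.47 for Cald1, 1.89 for Tpm1, 2.30 for Tpm2 and 1.11 for Smtn.

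The day 2 inhibitor effect under the empty virus minus that of the timecourse was -0.50 for Actg2, 0.28 for Myl9, 0.76 for Myh11, 0.34 for Cald1 and 0.32 for Tpm2. Under the Cdh1 virus minus the timecourse it was 0.26 for Acta2, -0.65 for Actg2, 0.67 for Cnn1 and 0.23 for Myl9. The inhibitor effect of the full window at day 4 minus that at day 2 was 0.14 for Acta2, 0.34 for Myl9, 0.19 for Cald1, 0.15 for Tpm1 and 0.30 for Tpm2. With 2 libraries per group no single library could be tested for standing apart.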

How the results depend on the processing

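Of 144 calls of single members, 116 kept direction and call under every alternative run and 28 lost the call under at least 1; none changed sign while called. Of 24 counts of called members, 10 moved by over 1.5 times. Where a cause is not evident from the setting, it was not tested. The count for the mid window (4) was 2 with DESeq2 and 2 with limma. Without the filter on low counts, the early window count (3) was 5, the difference of inhibitor effects between viruses (0) was 1, and that of the Cdh1 virus against the timecourse (4) was 2. With limma on log2(TPM + 1) the day 2 inhibitor count (8) was 5, the full window effect minus the day 2 effect (5) was 2 and the Cdh1 virus against the timecourse was 1. With total count scaling these last 2 were 3 and 1. Total count scaling moved the median of all genes to 0.17 at day 2 and 0.23 at day 4 against MEFs, where that of the members was -1.38 and -2.08.

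Leaving out 1 library at a time, counts ran from 2 to 5 for the full window minus day 2 effect, 1 to 1 for the early window, 1 to 3 for the mid window, 3 to 5 for early against mid window, 1 to 4 for the Cdh1 against the empty virus in MEFs, 0 to 1 for the same at day 2, 1 to 2 for the inhibitor under the empty virus and 1 to 3 for the Cdh1 virus against the timecourse. A group left with 1 library was assumed to vary like the others.

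Same-numbered libraries did not deviate together: correlations of their deviations ran from -0.09 to 0.11, and 1 of 48 pairs of groups was over 0.1. With the replicate block the only call that changed was Cnn1 in the full window minus day 2 effect (0.59, adjusted p = 0.0108), for a count of 6. Myh11 and Cnn1 were low at day 4, at no more than 5.73 CPM. The SEs of their differences between window and control were the widest among the members.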
